A study of Mus musculus with 2 samples.

Results

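The variable (V) segments of the immunoglobulin genes were examined in single-cell RNA counts of mouse spleen. The members are the features whose symbols start with Ighv, Igkv or Iglv and that had at least 20 unique molecular identifiers (UMIs, counted mRNA molecules) over both libraries. Of 32285 features, 348 carry such a symbol and 75 reached 20 UMIs. These 75 were 39 heavy chain segments with 1906 UMIs, 33 kappa segments with 1977 UMIs and 3 lambda segments with 1016 UMIs. They were chosen by their UMI total, which is given here only as a description. Just inside the limit were Ighv2-9-1 with 20 UMIs and Igkv5-39 and Igkv6-32 with 21 each. Just outside it were Ighv1-76 and Ighv1-59 with 19 each and Igkv8-19 with 18.

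Each B cell builds its receptor by joining 1 V segment to a diversity (D) and a joining (J) segment for the heavy chain, and 1 V segment to a J segment for a kappa or a lambda light chain. The joined V region is then spliced to a constant gene such as Ighm or Igkc. Follicular B cells of the spleen carry broad repertoires, whereas marginal zone and B-1 cells are known for recurrent, germline-encoded receptors. The best known of these in B-1 cells joins Ighv11-2 with Igkv14-126 and binds phosphatidylcholine. Libraries made from the 3′ end of transcripts read mainly the constant genes, so V segments are seen in few cells.

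The 6 segments on which the results turn are shown by the last 150 bases of exon 2, the exon that encodes the V region, in GENCODE M21 on GRCm38. Capitals in Iglv1 and Iglv2 mark the bases that differ between them, and capitals in the heavy and kappa segments mark the TGT codon of the conserved cysteine near the end of the V region. Iglv3 is shown in lower case beside them as the third lambda segment.
Iglv1: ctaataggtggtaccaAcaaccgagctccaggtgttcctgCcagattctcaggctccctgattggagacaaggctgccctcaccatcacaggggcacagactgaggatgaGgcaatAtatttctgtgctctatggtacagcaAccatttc
Iglv2: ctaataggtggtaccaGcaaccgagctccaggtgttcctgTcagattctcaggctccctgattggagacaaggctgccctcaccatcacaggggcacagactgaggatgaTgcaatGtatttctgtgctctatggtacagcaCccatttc
Iglv3: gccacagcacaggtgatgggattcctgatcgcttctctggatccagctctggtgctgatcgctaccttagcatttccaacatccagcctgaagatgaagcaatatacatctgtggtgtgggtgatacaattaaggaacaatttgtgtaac
Ighv11-2: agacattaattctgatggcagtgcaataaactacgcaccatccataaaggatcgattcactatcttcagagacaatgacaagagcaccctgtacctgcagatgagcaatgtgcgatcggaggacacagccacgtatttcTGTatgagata
Igkv14-126: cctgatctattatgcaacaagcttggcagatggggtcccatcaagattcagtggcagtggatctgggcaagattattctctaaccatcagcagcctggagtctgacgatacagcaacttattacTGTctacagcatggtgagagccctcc
Ighv3-6: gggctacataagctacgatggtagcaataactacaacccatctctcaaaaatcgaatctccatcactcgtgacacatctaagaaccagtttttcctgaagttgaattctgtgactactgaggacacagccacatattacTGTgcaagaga
These stretches lie at chr16:19085017-19085166 (Iglv1), chr16:19260401-19260550 (Iglv2), chr16:19241207-19241356 (Iglv3), chr12:114048241-114048390 (Ighv11-2) and chr12:114288152-114288301 (Ighv3-6), all on the minus strand, and at chr6:67896493-67896642 (Igkv14-126) on the plus strand. Iglv1 and Iglv2 were 97.0% identical over the 305 bases of exon 2, with 9 differing bases and a longest identical run of 104 bases. Iglv1 and Iglv3 were 54.3% identical. Reads from Iglv1 and Iglv2 can therefore be told apart only where they cover a differing base, while Iglv3 stands apart in sequence.

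The 2 libraries compared, 1 per treatment, came from wild-type (WT) mice that received 10000 iRBCs by intraperitoneal injection as an infection. Vehicle or the compound Glutoborin was given on days 2 and 4, and CD45+ spleen cells were sorted on day 5. The infecting organism, the dose and structure of Glutoborin, the mouse strain and the number of mice in each library are not given in the sources used here. With 1 library per group no spread between animals could be measured, so no test was made and every interval below (exact, 95%) covers counting error only. The 2 libraries held 48526448 UMIs in 8204 barcodes (Vehicle) and 56862504 UMIs in 9646 barcodes (Glutoborin), and 24 barcode sequences occurred in both.

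B cells were taken as barcodes with at least 4 UMIs of Cd79a, which encodes a signalling chain of the B cell receptor, and none of the T cell gene Cd3e. After filters and removal of called doublets, 3391 Vehicle and 5053 Glutoborin cells remained, with median depths of 4780 and 4128 UMIs; 6 of the shared barcodes were among them. The median depth was thus higher in the Vehicle library. Each cell was assigned its most abundant heavy and light member with at least 2 UMIs, ties being left out. By this rule 67 Vehicle cells (1.98%) and 96 Glutoborin cells (1.90%) had a heavy segment, and 92 (2.71%) and 93 (1.84%) had a light segment. A reading from 1 UMI, chosen after this sparseness was seen, assigned a heavy segment to 450 (13.3%) and 589 (11.7%) cells and a light segment to 612 (18.0%) and 744 (14.7%) cells.

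V UMIs outside B cells were rare. T cells (at least 2 Cd3e UMIs, no Cd79a) had a heavy V UMI in 5 of 1070 Vehicle cells (0.467%) and 2 of 1719 Glutoborin cells (0.116%), although their median depths of 6666 and 5826 UMIs exceeded those of the B cells. A light V UMI was found in 11 (1.03%) and 12 (0.698%) T cells. No T cell had 2 or more UMIs of a segment, and a limit of 3 counts for such a 0 allows shares of up to 0.280% and 0.175%. In gated cells other than plasma cells, the shares with any heavy V UMI were 13.3% and 11.6%, and with any light V UMI 19.2% and 15.4%. After every such cell had been thinned to 2000 UMIs (37 Vehicle and 47 Glutoborin cells were shallower and left out), the heavy shares were 5.35% and 5.27%. For the light chain thinning left 8.19% of Vehicle cells (7.28 to 9.17) and 6.92% of Glutoborin cells (6.23 to 7.66). At equal depth the heavy shares were therefore nearly equal, and the light share was higher in the Vehicle library with intervals that overlap.

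Plasma cells, which secrete antibody, held a large part of the V UMIs. A cluster of 26 gated cells (9 Vehicle, 17 Glutoborin) led by Jchain, the joining chain of secreted IgM, held 1128 of the 4899 member UMIs (23.0%). These plasma-cell-like cells averaged 43.4 V UMIs each, against 0.351 in the 8418 other gated cells. All gated cells together held 4081 member UMIs (83.3%).

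No V segment dominated the heavy chain repertoire. Counting cells from 1 UMI, Ighv3-6 was the most used heavy segment, in 34 of 450 Vehicle cells (7.56%) and 42 of 589 Glutoborin cells (7.13%). It was followed over both libraries by Ighv1-26 with 62 of 1039 cells (5.97%), Ighv1-9 with 42, and Ighv1-82, Ighv6-3 and Ighv9-3 with 41 each. Ighv5-4 (37 cells), Ighv1-81 (36), Ighv8-8 (35) and Ighv1-64 (34) completed the 10 most used, and together these took 201 Vehicle cells (44.7%) and 244 Glutoborin cells (41.4%). The effective number of heavy segments (the number of equally used segments that would give the same chance of finding 1 segment in a random pair of cells) was 31.0 in Vehicle and 32.6 in Glutoborin, of 39. The Ighv1 family, the large family of the distal heavy chain locus and 17 of the 39 members, took 47.6% (42.9 to 52.3) of Vehicle and 48.9% (44.8 to 53.0) of Glutoborin cells.

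Light chain usage was more uneven. Iglv1 was the top light segment of 92 of 612 Vehicle cells and 98 of 744 Glutoborin cells (13.2%), and Iglv3 of 84 (13.7%) and 99 (13.3%). The leading kappa segment, Igkv1-117, was found in 42 cells of each library, followed over both libraries by Igkv12-44 (71 cells), Igkv10-96 (70), Igkv1-135 (66) and Igkv1-110 (50). Igkv12-46, Igkv19-93 and Igkv6-15 had 44 cells each. The effective number of light segments was 15.9 in Vehicle and 17.7 in Glutoborin, of 36. At 2 UMIs Ighv3-6 was again the first heavy segment, with 16 of 163 cells. For the light chain, Iglv1 stayed first with 30 of 185 cells, and Iglv3 moved from the second to the fifth place with 10 cells.

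**Figure D1:**
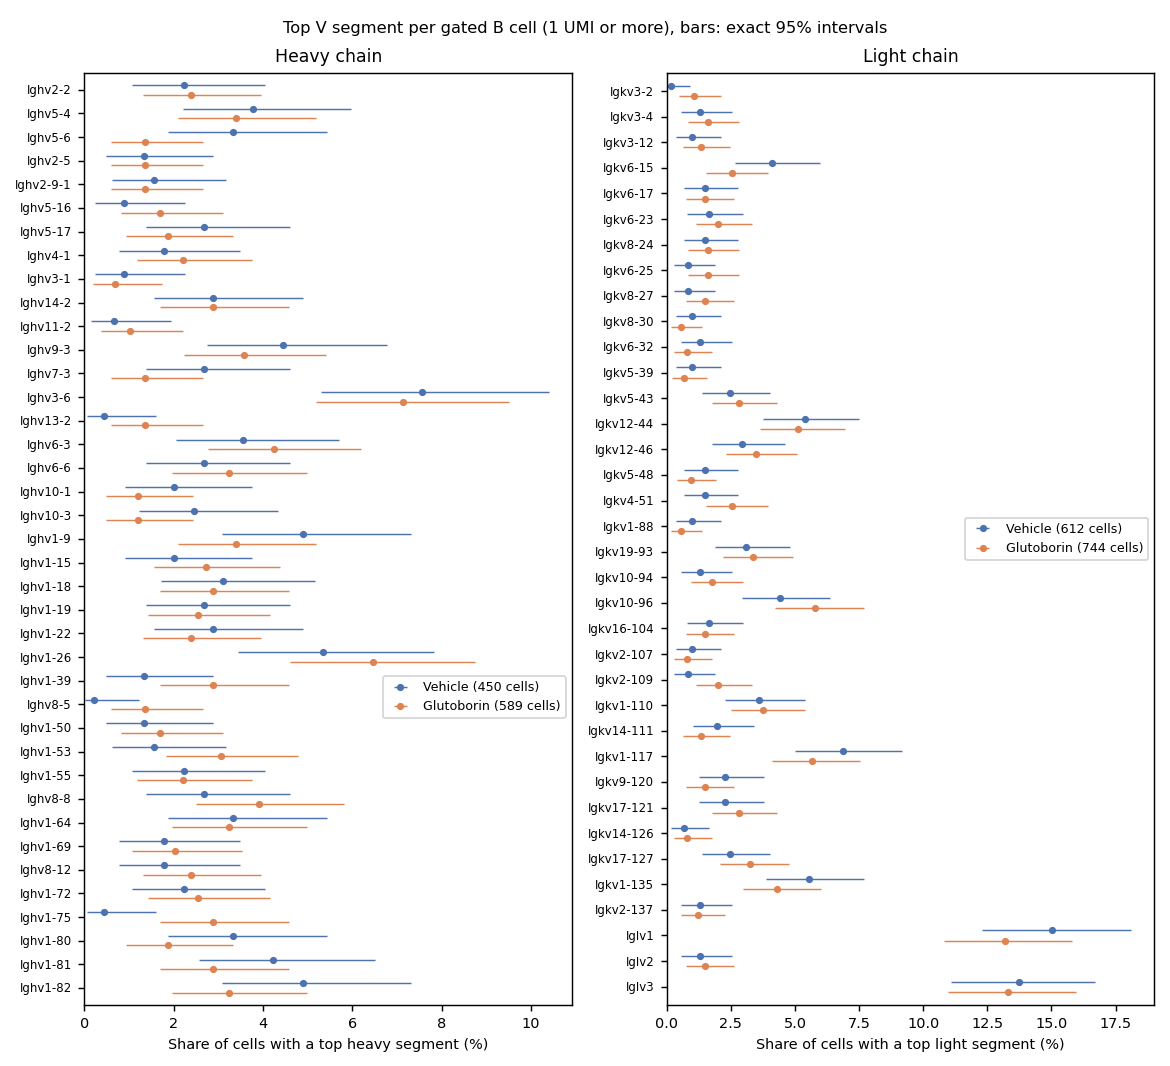
Share of gated B cells (x axis, %) whose top heavy (left) or light (right) V segment is the named member, from 1 UMI, with segments in their order along each locus. Points are the 2 libraries and bars exact 95% intervals; the points of a segment mostly lie within each other's bars, and Ighv1-75 (2 Vehicle and 17 Glutoborin cells) is the heavy segment whose ratio interval stays clear of 1.

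Between the libraries, no segment share differed beyond counting error at 2 UMIs. Of 14 heavy segments with at least 5 cells, 5 were at least 1.5-fold higher in Glutoborin (35.7%) and 3 at least 1.5-fold lower (21.4%). Of 16 light segments, 4 were higher (25%) and 5 lower (31.2%). As a background, the 2871 genes with 2 or more UMIs in 5 to 30 gated cells were read as shares of their summed cells, and 26.5% were at least 1.5-fold higher and 25.4% lower. Their median was 13 cells, against 6 for the members in that window, and the members' counts lay on both sides of these shares. The intervals of these 30 ratios all included 1. The most used segments illustrate the width: Ighv3-6 was the top segment of 5 of 67 Vehicle and 11 of 96 Glutoborin cells, a ratio of 1.53 (0.492 to 5.64). Iglv1 was the top segment of 16 of 92 and 14 of 93 cells, a ratio of 0.866 (0.391 to 1.89).

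From 1 UMI the same comparison covered all 75 members. Of 39 heavy segments 7 were at least 1.5-fold higher in Glutoborin (17.9%) and 6 lower (15.4%), and of 36 light segments 5 were higher (13.9%) and 6 lower (16.7%). As a background, all genes seen in 5 to 100 gated cells other than plasma cells were 1.5-fold higher in the share of such cells in 15.3% and lower in 26.6% of 4330 cases. The V members under the same limits were higher in 9.59% and lower in 27.4% of 73, which is near or under the background. This background covers shares of all such cells. The counts of heavy and light segments before it are shares of assigned cells, plasma-cell-like cells included, and are not measured by it. Across segments the shares of the 2 libraries had a Pearson r of 0.764 and a Spearman rho of 0.650 (39 heavy segments), and 0.976 and 0.814 (36 light segments). These describe 2 libraries that share their annotation and chemistry.

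Ighv1-75 was the 1 heavy segment of 39 whose ratio lay beyond counting error, and 0 of 36 light segments did so. Among that many 95% intervals some can exclude 1 by counting alone. No share of all genes beyond counting error is given beside it, nor beside the subset comparisons below. It was the top heavy segment of 2 of 450 Vehicle cells (0.444%) and 17 of 589 Glutoborin cells (2.89%), a ratio of 6.49 (1.54 to 58.0), and it is named after its values were seen. Of the 17 Glutoborin cells 12 were follicular-like, as were both Vehicle cells, and at 2 UMIs 0 and 3 cells carried it. Among the segments with at least 30 cells, Ighv1-26 (24 and 38 cells), Ighv6-3 (16 and 25), Ighv6-6 (12 and 19) and Ighv8-8 (12 and 23) ranked first on the higher side in Glutoborin, with ratios from 1.19 to 1.46. Ighv1-82 (22 and 19 cells), Ighv1-81 (19 and 17), Ighv1-9 (22 and 20), Ighv9-3 (20 and 21) and Ighv3-6 had ratios from 0.660 to 0.944. For the light chain, Igkv10-96 (27 and 43 cells), Igkv17-127 (15 and 24), Igkv17-121 (14 and 21), Igkv12-46 (18 and 26) and Igkv1-110 (22 and 28) had ratios from 1.05 to 1.32. Igkv6-15 (25 and 19 cells), Igkv1-135 (34 and 32), Igkv1-117, Iglv1 and Iglv3 had ratios from 0.625 to 0.969. All of these intervals included 1.

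Summed over gated cells other than plasma cells, heavy V transcripts made up 27.2 CPM (UMIs per 1e6 UMIs) in each library, a ratio of 0.998 (0.891 to 1.12). Kappa V transcripts made up 27.7 and 26.0 CPM, a ratio of 0.941 (0.839 to 1.06). Lambda V transcripts were lower in Glutoborin, at 13.0 and 10.3 CPM with a ratio of 0.790 (0.663 to 0.942), and Iglv1 alone at 6.78 and 4.90 CPM with a ratio of 0.723 (0.562 to 0.930). The lambda constant genes were not lower in the same cells: Iglc1, Iglc2 and Iglc3 had log2 ratios of 0.13, 0.05 and 0.10. By constant gene, lambda cells made up 9.02% of these cells in Vehicle and 8.70% in Glutoborin. With the plasma-cell-like cells included, Iglv1 turned to 8.53 and 15.9 CPM, a ratio of 1.86 (1.56 to 2.24), and 170 of the 412 Glutoborin UMIs lay in 1 cell. Over members with 20 to 200 UMIs in gated cells, 27.9% of 68 were 1.5-fold higher in Glutoborin against 14.8% of 3210 genes; without the plasma-cell-like cells the share was 10.3% of 58 against 14.1% of 3196.

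To compare B cell subsets, gated cells were clustered without any immunoglobulin gene and named from marker genes. Follicular-like clusters held 2385 Vehicle and 3637 Glutoborin cells. A marginal zone-like cluster held 253 and 412 cells and was led by Dtx1, Cd9, Myof and S1pr3, with the complement receptor gene Cr2 in 98.0% of cells. A B-1-like cluster held 136 and 230 cells and was led by the transcription factor genes Bhlhe41 (36.3% of cells) and Zbtb32 (18.0%). Its name rests on 3 of 10 markers (Bhlhe41, Atxn1 and S100a6) that were in at least 20% of its cells and at least 2-fold above the rest. Cd5, the surface marker of B-1a cells, was seen in 7.10% of its cells and Itgam in 1.91%, and its leading genes also include Ighg2b, Igha and Apoe. A transitional-like cluster held 278 and 410 cells, and 330 and 347 cells stayed unnamed, among them 51 and 44 in a cluster led by the myeloid genes Lyz2 and S100a8.

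The subsets differed in depth. Median depths were 4097 UMIs in follicular-like, 7576 in marginal zone-like and 6954 in B-1-like cells. From 1 UMI a heavy segment was assigned to 11.7% of follicular-like, 12.3% of marginal zone-like and 13.7% of B-1-like cells, and a light segment to 14.6%, 17.7% and 19.9%. The follicular-like cells of the libraries came from different clusters: 2 clusters led by Socs1, Gbp7 and other interferon-response genes held 880 of the 2385 Vehicle and 334 of the 3637 Glutoborin cells. The summed level of 6 myeloid markers in follicular-like cells was 202.0 CPM in Vehicle and 108.7 in Glutoborin, and that of 7 T cell markers 73.6 and 48.6, with Cd3e at 0 by the gate. The part of these differences in segment usage was not tested.

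At 2 UMIs the subsets gave too few cells to compare. Marginal zone-like cells had 11 heavy and 12 light assignments and B-1-like cells 5 and 14. In the marginal zone-like cells 1 of 6 heavy segments (16.7%) and 4 of 9 light segments (44.4%) were at least 1.5-fold higher than in follicular-like cells, beside 25% of the 2978 genes with 2 or more UMIs in 5 to 30 of these cells. In the B-1-like cells 1 of 5 heavy segments (20%) and 1 of 7 light segments (14.3%) were higher, beside 26.9% of 3084 genes. No segment was lower, beside 25.8% and 18.9% of the genes, but these cell numbers all but fixed that result. A segment unseen in a subset was read as 3 counts, too large a share here to be called lower. Even 1 cell was at least 7.14% of a subset's assigned cells, while the highest follicular-like share was 10.75%. The genes had a median of 14 cells, against 6 and 7.5 for the members. Their shares are therefore no measure for the lower side, and no interval excluded 1. Ighv11-2 was the top segment of 1 of the 5 assigned B-1-like cells (20%, 0.505 to 71.6).

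From 1 UMI and over both libraries together, B-1-like cells carried the phosphatidylcholine-type segments more often than follicular-like cells. Ighv11-2 was the top heavy segment of 3 of 50 B-1-like cells (6%) and 3 of 705 follicular-like cells (0.426%), a ratio of 14.1 (1.89 to 105). All 3 B-1-like cells were from the Vehicle library (3 of 24), where 0 of 299 follicular-like cells carried it; in Glutoborin the counts were 0 of 26 and 3 of 406. Igkv14-126 was the top light segment of 4 of 73 B-1-like cells (5.48%) and 3 of 877 follicular-like cells (0.342%), a ratio of 16.0 (2.71 to 109). The share was higher in B-1-like cells of both libraries, with 2 of 28 against 0 of 392 in Vehicle and 2 of 45 against 3 of 485 in Glutoborin. Any UMI of either segment was found in 7 of 366 B-1-like cells, and in 6 of 6022 follicular-like cells. None of these B-1-like cells had both segments, and the 1 with Ighv11-2 and an assigned light segment had Iglv1. The other receptor segments known from B-1 cells stayed under 20 UMIs over both libraries: Ighv12-3 had 6, Ighv7-1 had 11 and Igkv4-91 had 12, and Ighv5-2, the heavy segment used early in B cell development, had 17.

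Ighv6-6 was also more frequent among B-1-like cells, at 4 of 50 (8%) against 13 of 705 (1.84%), a ratio of 4.34 (1.03 to 14.0). At coarser and finer clustering this ratio was 4.32 (0.815 to 14.8) and 3.60 (0.671 to 12.6), which includes 1. The corresponding ratios of Ighv11-2 were 19.4 (2.85 to 115) and 19.2 (2.57 to 143), and those of Igkv14-126 21.6 (4.02 to 116) and 16.7 (3.12 to 89.8). Ighv3-6 was found in 6 of 50 B-1-like and 45 of 705 follicular-like cells, a ratio of 1.88 (0.655 to 4.42). In all, 11 of 38 heavy segments (28.9%) were at least 1.5-fold higher in B-1-like cells and 1 was lower (2.63%), with Ighv11-2 and Ighv6-6 beyond counting error. Of 36 light segments 11 were higher (30.6%) and 4 lower (11.1%), with Igkv14-126 beyond counting error. Read in the same way, 25.9% of the 3404 genes with a UMI in 5 to 60 of these cells were higher and 20.9% lower. The members' counts on the higher side were thus near the background. The Ighv1 family took 16 of 50 B-1-like cells (32%, 19.5 to 46.7) and 371 of 705 follicular-like cells (52.6%, 48.9 to 56.4), a ratio of 0.608 (0.344 to 1.00), whose interval just includes 1. The shares were 33.3% against 53.8% in Vehicle, a ratio of 0.619 (0.263 to 1.25), and 30.8% against 51.7% in Glutoborin, a ratio of 0.595 (0.254 to 1.19). The family also took 33 of 82 marginal zone-like cells (40.2%), a ratio to follicular-like cells of 0.765 (0.519 to 1.09), and 29 of 72 transitional-like cells (40.3%, 28.9 to 52.5). At coarser and finer clustering the ratio for B-1-like cells was 0.375 (0.137 to 0.824) and 0.481 (0.229 to 0.893).

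The Igkv2 family was more frequent in marginal zone-like than in follicular-like cells. Its 3 members were the top light segment of 11 of 118 marginal zone-like cells (9.32%, 4.75 to 16.1) and 26 of 877 follicular-like cells (2.96%, 1.95 to 4.31), a ratio of 3.14 (1.40 to 6.59). The shares were 7.84% against 2.81% in Vehicle and 10.4% against 3.09% in Glutoborin. Other ways of defining the subsets gave ratios from 2.79 to 4.37, all with intervals above 1. In B-1-like cells the family had 6 of 73 cells (8.22%), a ratio to follicular-like cells of 2.77 (0.933 to 6.89), and at coarser and finer clustering 3.72 (1.12 to 9.72) and 3.72 (1.25 to 9.19). The higher share was therefore not shown to be particular to marginal zone-like cells. Within the family Igkv2-109 had 6 of 118 against 11 of 877 cells, a ratio of 4.05 (1.23 to 12.0). Igkv2-107, which GENCODE annotates as a pseudogene, had 4 against 6 cells, a ratio of 4.96 (1.03 to 20.9), and at coarser clustering the interval of its ratio was 0.902 to 16.5, which includes 1. The family and these members were picked out after the values were seen. Over all segments, 10 of 36 heavy (27.8%) were at least 1.5-fold higher and 7 lower (19.4%) in marginal zone-like cells, none beyond counting error. Of 35 light segments 10 were higher (28.6%) and 6 lower (17.1%), and the 2 Igkv2 segments lay beyond counting error. Of 3383 genes with a UMI in 5 to 60 of these cells, 23.2% were higher and 27.2% lower when read in the same way, so these counts were near or under the background. Ighv1-81, with 30 follicular-like cells, was seen in 0 of 82 marginal zone-like cells, and Igkv4-51, with 24, in 0 of 118.

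**Figure D2:**
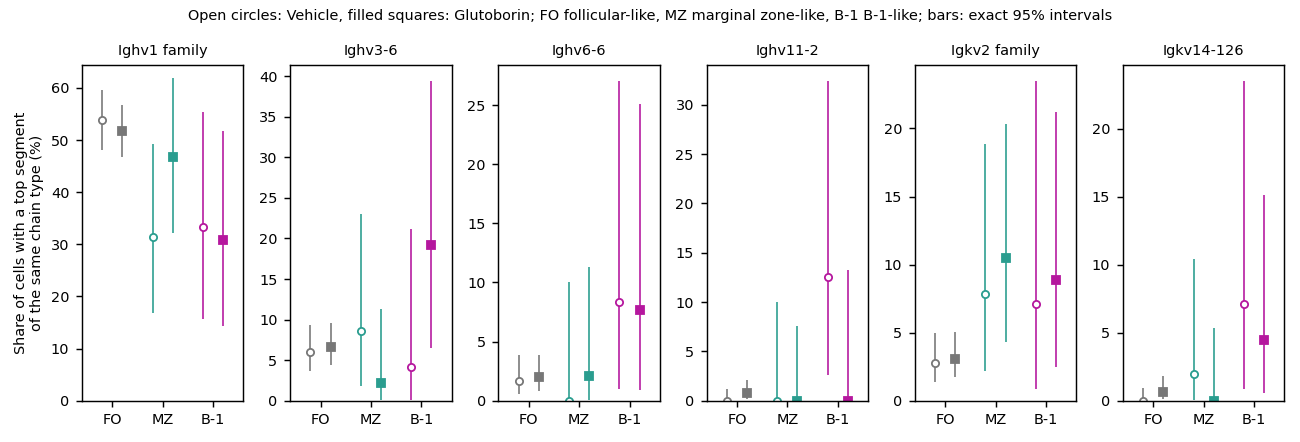
Share of cells with a top segment of the chain (y axis, %) that carry the named segment or family, from 1 UMI, in follicular-like (FO), marginal zone-like (MZ) and B-1-like cells. Open circles are Vehicle, filled squares Glutoborin and bars exact 95% intervals; the Ighv1 points of B-1-like cells lie below those of follicular-like cells in both libraries, with ratio intervals that include 1, and the 3 B-1-like cells with Ighv11-2 are all from Vehicle.

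The lambda segments were examined against the constant genes, which were seen in far more cells. Igkc was found in 99.8% of Vehicle and 99.2% of Glutoborin B cells other than plasma cells. It was also found in 95.9% and 76.3% of T cells, at 3.68 and 1.55 UMIs per cell. The lambda cells defined below had a median of 11 and 10 Igkc UMIs. The part of UMIs from other cells in these calls was not tested. Lambda V segments were the top light segment in 30.1% of assigned Vehicle and 28.0% of Glutoborin cells from 1 UMI, and in 23.9% and 21.5% at 2 UMIs. By the constant genes (more Iglc1, Iglc2 and Iglc3 than Igkc UMIs) 9.02% of Vehicle and 8.73% of Glutoborin cells were lambda cells. The share by V segment thus lay well above that by constant gene in both libraries. By the constant genes, lambda cells made up 7.56% of follicular-like, 10.4% of marginal zone-like, 12.3% of B-1-like cells and 103 of 688 transitional-like cells.

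The 3 lambda segments differed in the cells that carried them. Outside plasma cells, 22 of the 27 cells with an Iglv2 UMI were lambda cells by constant gene (81.5%, 61.9 to 93.7), as were 103 of the 227 cells with Iglv1 (45.4%, 38.8 to 52.1). For Iglv3 these were 40 of 222 cells (18.0%, 13.2 to 23.7). Cells with a kappa segment were lambda cells in 50 of 1062 cases summed over the 33 segments (4.71%), and for 9 segments in none. The highest kappa shares were 5 of 20 cells with Igkv2-107 (25%, 8.66 to 49.1), above Iglv3, and 6 of 34 with Igkv4-51 (17.6%, 6.76 to 34.5). Igkv2-109 had 3 of 26 (11.5%, 2.45 to 30.2), and no cell outside the plasma-cell-like cells had 2 UMIs of Igkv2-107 or Igkv2-109. Cells with at least 2 Iglv1 UMIs were lambda cells in 21 of 26 cases (80.8%), and those with exactly 1 in 82 of 201 (40.8%). The difference between the segments was the same in order in both libraries, with 71.4%, 46.5% and 23.3% for Iglv2, Iglv1 and Iglv3 in Vehicle and 92.3%, 44.2% and 13.4% in Glutoborin.

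**Figure D3:**
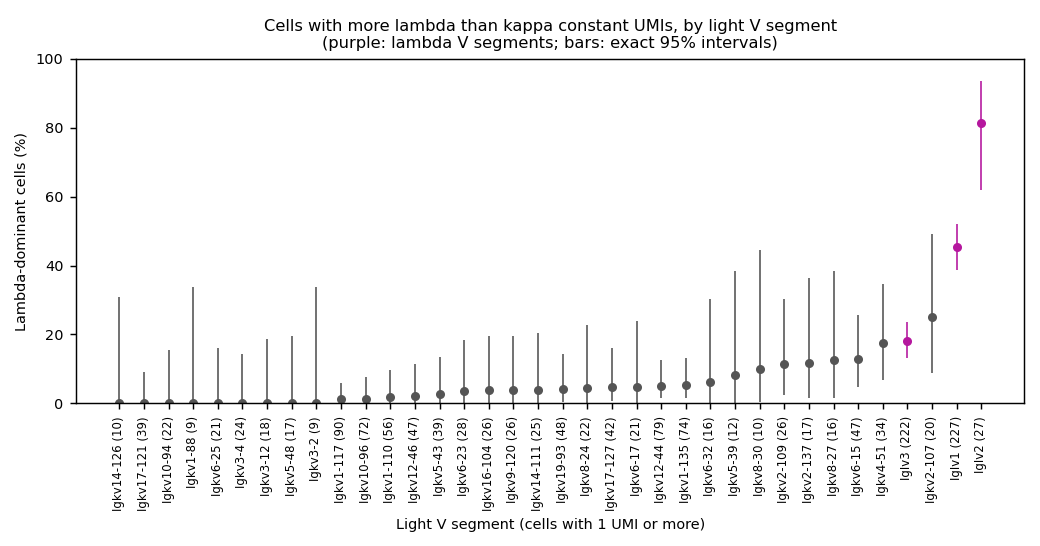
Share of cells with more lambda than kappa constant UMIs (y axis, %) among cells with a UMI of each light V segment (x axis, number of cells in brackets), plasma-cell-like cells left out. Bars are exact 95% intervals; Iglv2 (81.5%) and Iglv1 (45.4%) lie highest, while Iglv3 (18.0%) lies among the upper kappa segments.

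Seen from the cells, Iglv1 was present in 17.4% of Vehicle and 11.4% of Glutoborin lambda cells, and in 1.98% and 1.37% of kappa cells. Iglv3 was present in 7.87% and 3.65% of lambda cells and in 2.57% and 2.24% of kappa cells, and Iglv2 in 3.28% and 2.74% against 0.130% and 0.0217%. T cells had Iglv1 in 0.0935% and 0%, and Iglv3 in 0.187% and 0%, which for these segments is below the kappa B cells. Iglv2 had 2 UMIs in the 1070 Vehicle T cells and 0 in Glutoborin. In Vehicle this was not below the kappa B cells, of which 4 of 3077 had Iglv2. Among lambda cells, Iglc1 was the leading constant gene in 72 of 103 with Iglv1 (69.9%, 60.1 to 78.5), in 4 of 22 with Iglv2 (18.2%, 5.19 to 40.3) and in 21 of 40 with Iglv3 (52.5%, 36.1 to 68.5). Over all lambda cells this share was 45.5%. In the mouse locus Iglv1 lies upstream of Iglc3 and Iglc1, and Iglv2 and Iglv3 lie upstream of Iglc2 and Iglc4.

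A cell was usually seen with a single heavy segment. Among non-plasma cells with at least 2 heavy V UMIs, 136 of 156 (87.2%, 80.9 to 92.0) had all of them from 1 segment. For the light chain this was so in 144 of 251 cells (57.4%, 51.0 to 63.6). Of the 107 light exceptions, 63 combined a kappa with a lambda segment and 41 involved Iglv3. From 1 UMI, 227 cells had both a heavy and a light assignment, in 192 different pairs, of which 28 were seen in more than 1 cell. The most frequent pair, Ighv1-82 with Iglv3, was seen in 5 follicular-like cells (3 Vehicle, 2 Glutoborin).

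In the plasma-cell-like cells a top V segment could be read for both chains, without D and J segments. With every V feature allowed, all 26 had a heavy and a light segment, in 25 different pairs of top segments. Ighv6-6 with Igkv1-135 occurred in 2 Vehicle cells. In the Glutoborin cells G1, G3 and G10 the top light segment was Iglv1 although Igkc led the constant genes, so their pairs are uncertain. The leading heavy constant gene was Ighm, which encodes IgM, in 25 cells and Ighg2c, which encodes IgG2c, in 1 Glutoborin cell. Total V UMIs per cell ran from 14 to 59 (median 41) in Vehicle and from 12 to 221 (median 33) in Glutoborin. The pair Ighv11-2 with Igkv14-126 was read in 1 Glutoborin cell with 15 and 52 UMIs, which holds most of the 24 and 66 UMIs that these segments had in all gated cells. The most frequent heavy segment among the 26 was Ighv6-6, with 2 Vehicle and 2 Glutoborin cells.

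**Figure D4:**
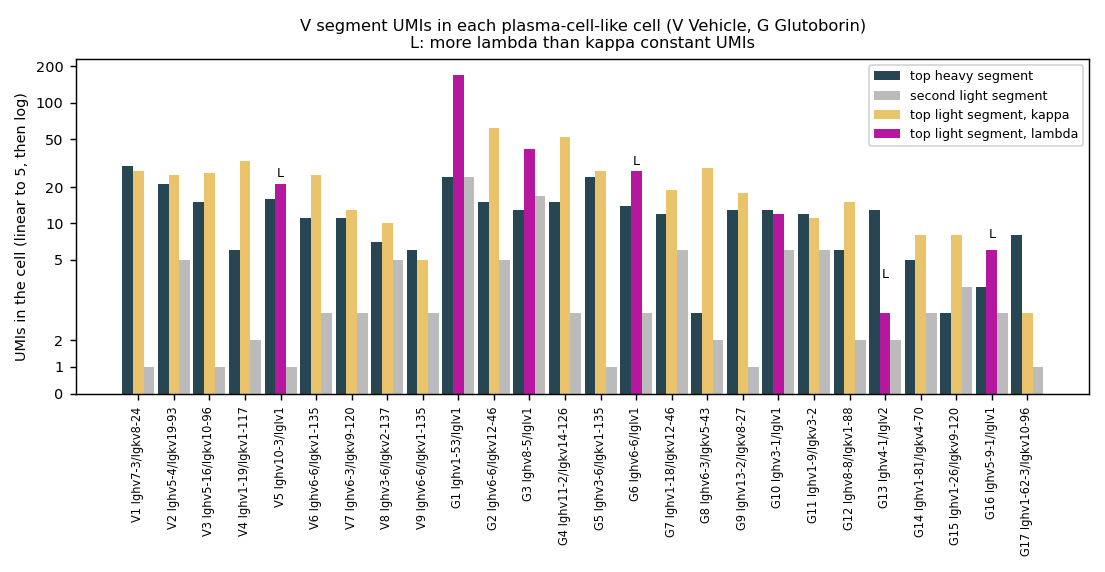
UMIs of the top heavy, top light and second light V segment (y axis, linear to 5, then logarithmic) in each of the 9 Vehicle (V) and 17 Glutoborin (G) plasma-cell-like cells (x axis, named by heavy and light segment). Purple bars are lambda segments and L marks cells with more lambda than kappa constant UMIs; cell G1 has 170 Iglv1 UMIs without the mark L, and G3 and G10 also have Iglv1 on top without it.

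The light V segment and the light constant gene named the same chain in 9 of 9 Vehicle and 14 of 17 Glutoborin plasma-cell-like cells. The IgG2c cell had 170 Iglv1 UMIs and 24 of Igkv1-117, with 10889 Igkc and 2 Iglc1 UMIs. Among all plasma cells that were kappa by constant gene and had at least 100 Jchain UMIs, gated or not, Iglv1 was the top light V segment in 0 of 8 Vehicle and 6 of 22 Glutoborin cells (27.3%, 10.7 to 50.2). These 6 cells had 6 to 170 Iglv1 and 2 to 32 Iglc1 UMIs, and in each a kappa segment came second. The counts do not show which transcripts these Iglv1 UMIs came from, so the difference between the libraries is given as counted, with no reading of what the cells expressed. Of these 6, 3 were in the B cell gate; the others missed it through a low Cd79a or a Cd3e UMI. Of 24 plasma cells, gated or not, with a kappa segment on top, 19 had a lambda segment as their second light segment, with at most 6 UMIs.

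Usage along the loci was uneven for kappa and even for heavy segments. With the kappa features divided by order into 3 blocks, the block nearest to Igkc held 17 members of 42 annotated genes and the farthest held 14 of 30. The middle block held 1 of 28, Igkv1-88, and 24 of its 28 annotated genes belong to the Igkv4 family. As a block with 1 member can hold few assigned cells, usage was read from the UMIs of all annotated genes, members or not, in gated cells other than plasma cells. The nearest block held 42.2% of these kappa UMIs in Vehicle and 44.8% in Glutoborin, the middle 10.1% and 7.46%, and the farthest 47.7% and 47.7%. Over both libraries that was 15.8 UMIs per gene in the nearest block (median 11), 4.68 in the middle (median 4) and 24.1 in the farthest (median 12). For the genes of the middle block, the median identity to the nearest segment of the same family, 95.4%, was close to the 95.1% of the nearest block and the 94.6% of the farthest. Heavy blocks of 41, 33 and 41 annotated genes, from the nearest to the farthest, held 38.0%, 30.9% and 31.1% of the heavy UMIs in Vehicle and 34.1%, 29.9% and 36.0% in Glutoborin.

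Members and the annotated genes below 20 UMIs were alike in median identity and in the median longest run of A. Other counts were less alike. At least 95% identity to a relative was found in 27 of 39 heavy members and 39 of 73 heavy genes below the limit. For kappa these were 16 of 31 and 31 of 65. At least 8 A within a short window occurred in 1 of 33 kappa members and 7 of 68 kappa genes below the limit. For heavy genes these were 1 of 39 and 0 of 76. Heavy members were a median 96.1% identical to their nearest family relative, and the 76 annotated heavy genes below 20 UMIs 95.1%. Kappa members had a median of 95.2% and the 68 kappa genes below the limit 94.9%. Reads of segments over 95% identical can be lost or split by counting, and 27 of the 39 heavy members were of that kind, so shares of single segments within the Ighv1 family are uncertain. The longest run of A was a median 4 bases in each of these sets. Of the 129 annotated pseudogenes below 20 UMIs, 100 had none.

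The rest of the receptor pathway was read from a list of 53 features. All 31 D and J features had 0 UMIs. Of the 14 genes with at least 50 UMIs in gated cells, 5 were at least 1.5-fold higher in Glutoborin and none lower. The 5 were Ighg2b, Ighg2c, Ighg3, Iglc1 and Vpreb3. Of the Glutoborin UMIs, 4391 of 4443 of Ighg2c and 10526 of 36894 of Iglc1 lay in 1 plasma-cell-like cell each. Of 12138 genes with at least 20 UMIs, a lower limit than for the 14, 4.56% were higher and 5.5% lower. Without the plasma-cell-like cells 4 of the 14 were higher and 1 lower, beside 4.39% and 5.56% of 12107 genes. The median log2 ratio of the 14 was then 0.12. The IgG genes Ighg2b (log2 ratio 0.88, 6.01 and 11.1 CPM) and Ighg3 (1.06, 3.31 and 6.90 CPM) were higher in Glutoborin without them, as was Ighg2c (2.15, from 9 and 52 UMIs). The IgG gene Ighg1, under the limit of 50 UMIs, went the other way, with 38 Vehicle and 2 Glutoborin UMIs. The IgG genes thus did not move as a group. Vpreb3, expressed in immature B cells, had a log2 ratio of 0.59. Jchain was lower in Glutoborin, with a log2 ratio of -1.34, and T cells moved with it: a Jchain UMI was found in 14.3% of Vehicle and 4.01% of Glutoborin T cells, beside 14.7% and 3.79% of these B cells. Ighm, the IgM heavy chain gene, and Igkc stayed within 1.5-fold.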

How the data were processed

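Each library was deposited as a sparse matrix whose values are raw UMI counts (molecules of a gene in a barcode), left unnormalized by the authors and made with a 10x 3′ v3.1 kit per the labels' protocols. Per the file headers the matrices come from Cell Ranger 6.1.2; the submitters' processing notes give version 6.0.1 of that program, with Seurat 4.3.0 and the build mm10. Libraries were grouped by the treatment in the labels, with 1 library per group. The rule for members, the lists and the comparisons were chosen with earlier results of these data known.

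Barcodes with under 300 genes or 500 UMIs, or over 10% mitochondrial UMIs, were left out, as were doublets called with scanpy 1.11.5 in each library (2.93% of Vehicle and 3.80% of Glutoborin cells passing the filters). The gate of Cd79a (4 or more UMIs) and Cd3e (0) was met by 3733 and 5177 barcodes before these steps. Gated cells were scaled to 10000 counts, log-transformed and clustered (2000 variable genes without immunoglobulin, interferon, cycle, stress or ribosomal genes, 30 components, 15 neighbours, Leiden resolution 1.5). Clusters were named from marker lists; the limits for naming (3 markers in at least 20% of cells and 2-fold above the rest) were set after the clusters were seen. A per-cell count of markers gave 10 B-1-like cells in place of the cluster's 366.

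Shares have exact Clopper-Pearson and ratios exact conditional intervals at 95%; a ratio needed 5 cells over both groups and was read against a 1.5-fold limit. UMIs of a PCR-amplified library are counted molecules, and intervals do not cover differences between animals. Segments were named where they were the top segment of at least 30 cells (5 on each side by the interval bound nearest to 1, per chain), the 10 most used of each chain, up to 5 on each side per subset, and 9 fixed by name. All 348 V features matched GENCODE M21, whose build is that of the files. Alternatives covered the cell filter, the gate, the UMIs needed, dominance, depth, plasma cells, UMI sums and the clustering.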

Additional observations from a re-analysis of the deposited data

How the results depend on the processing

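Of 111 alternative values, 63 stayed within 1.5 times or within their interval and 48 moved. The order of the libraries was not part of this sorting, and it turned in some settings. The lambda share was 23.91% in Vehicle and 21.51% in Glutoborin at 2 UMIs. It was 17.65% and 29.17% with 3 UMIs, 15.79% and 23.81% after thinning, and 29.97% and 37.34% from UMI sums. Every other setting kept the order of the lambda share. The effective number of heavy segments was 38.12 and 29.04 at 2 UMIs, but 27.2 and 54 with 3 UMIs. With 1 UMI it was 31.01 and 32.62. That of light segments was 17.09 and 20.87 at 2 UMIs, but 22.67 and 16.24 with 3 UMIs and 28.5 and 14 after thinning. The share of cells with a heavy segment was 1.976% and 1.9% at 2 UMIs. It turned in several settings, such as 0.5013% and 0.5541% with 3 UMIs. With 3 UMIs required, only 0 heavy and 1 light segment had enough cells for a ratio between libraries, and 0 in the subset comparisons. The counts past 1.5-fold were therefore 0 for lack of segments to compare, and the 1 light segment did not pass. The light chain in B-1-like cells gave no value, as no cell was assigned. The shares of cells with a heavy and a light segment were 0.533% and 0.486%. With cells thinned to 2000 UMIs, 1 heavy and 1 light segment could be compared between libraries, of which 0 and 1 passed. In every subset comparison 0 could be compared. The shares were 0.299% and 0.478% and the effective number of heavy segments 23.1 with no upper bound. Without the plasma-cell-like cells 5 heavy segments passed and the light share was 1.89%; UMI sums in place of cells gave 19 heavy and 19 light segments and a lambda share of 34.4%.

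With 1 UMI the counts were 13 heavy segments between libraries, 17 heavy and 16 light in marginal zone-like and 12 heavy and 15 light in B-1-like cells, and the shares of cells 12.3% and 16.1%. Without plasma-cell-like cells they were 15 heavy segments, 12.1% and 15.8%. Every V feature in place of the members gave a heavy share of 2.38% and an effective number of 46.3, and the constant genes a lambda share of 8.85%. Coarser clustering (resolution 0.8) gave 3 heavy and 7 light segments in marginal zone-like and 0 heavy and 2 light in B-1-like cells. Finer clustering (2.5) gave 4 heavy in marginal zone-like and 2 light in B-1-like cells. The per-cell marker count gave 0 heavy and 1 light in marginal zone-like cells and 0 and 0 in B-1-like cells. A dominance of 3 times over the second segment gave 2 light segments in B-1-like cells. The share of assigned B-1-like cells with Ighv11-2 or Ighv12-3 was 0% with 3 UMIs or thinning and 100% (1 cell) by the marker count. The causes were not tested. The 1 UMI, all-feature, constant-gene and myeloid-cluster alternatives were chosen after seeing the data.

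No paired analysis was possible because each group holds 1 library, so there was also no replicate to leave out. At this depth single segments are compared on few cells.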
